A study of Mus musculus with 6 samples.

Results

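A set of 5 genes of DNA methylation and chromatin regulation, Dnmt1, Dnmt3l, Ehmt1, Ep400 and Gatad2a, was followed in maxillary arch mesenchyme, from which the upper jaw and the palate form. They were chosen from the authors' deposited table of probe sets that differed between genotypes. The intensities in that table thus selected them, and every difference given here between the genotypes is a description. Of 1061 probe sets in that table, 5 carry the symbol of a member, 1 for each gene, out of 45037 probe sets on the array that are not controls. The other probe sets of these genes are not named in the files used and were not analysed here.

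RNA came from 3 female embryos lacking both LIM-homeodomain genes (Lhx6-/-; Lhx8-/-), numbered 1, 2 and 4, and from 3 female wild-type embryos, numbered 1, 4 and 5, all at embryonic day 10.5. The mice carried a mixture of CD-1, 129 and C57BL/6J background in both groups, and the embryos were matched by somite count. The region where Lhx6 and Lhx8 are normally active was excised from frozen sections by laser microdissection, and the amplified RNA was hybridised to Affymetrix Mouse Genome 430 2.0 arrays, which report a fluorescence intensity for each probe set. The deposited table numbers its wild-type arrays 3, 4 and 5. No title carries the 3, and this array is called the unnumbered wild-type array. Whether it is the array titled wild type 1 is not stated. The labels do not say which part of each gene the null alleles lack.

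DNA methylation in mammals is written by the de novo enzymes Dnmt3a and Dnmt3b and copied to the new strand at replication by Dnmt1. Dnmt3l has no catalytic activity of its own and stimulates the de novo enzymes, mainly in germ cells and early embryos. Ehmt1, also called GLP, forms a pair with G9a that methylates lysine 9 of histone H3 in euchromatin, a repressive mark. Ep400 is the ATPase of the TIP60/p400 complex, which exchanges histone variants and acetylates histones. Gatad2a is a subunit of NuRD, a complex that joins nucleosome remodelling to histone deacetylation.

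All 5 genes were found by gene identifier in the RefSeq tables (GRCm38.p6), which hold 10 transcription starts for them. The 250 bases before the starts of the 3 genes with higher intensity, and before the outermost start of Gatad2a, the one member past all of the study's criteria in the deposited table, are printed to show their base composition and where they hold the TAAT core of homeodomain sites. Capitals mark TAAT or its reverse complement ATTA, searched on both strands. The first sequence lies at chr9:20959889-20960138, the second at chr9:20952980-20953229, the third at chr2:24919610-24919859, the fourth at chr5:110770718-110770967 and the fifth at chr8:69996385-69996634, all on the minus strand.
Dnmt1, outermost start: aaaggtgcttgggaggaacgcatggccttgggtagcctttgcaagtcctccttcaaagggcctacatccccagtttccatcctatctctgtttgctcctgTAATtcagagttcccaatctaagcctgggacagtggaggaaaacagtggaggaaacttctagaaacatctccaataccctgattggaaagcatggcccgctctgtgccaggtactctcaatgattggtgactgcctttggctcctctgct
Dnmt1, second start: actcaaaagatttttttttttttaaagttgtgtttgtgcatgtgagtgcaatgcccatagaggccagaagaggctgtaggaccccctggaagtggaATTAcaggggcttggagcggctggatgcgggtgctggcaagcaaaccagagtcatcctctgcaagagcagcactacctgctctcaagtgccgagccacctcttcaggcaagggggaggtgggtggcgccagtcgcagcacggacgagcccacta
Ehmt1: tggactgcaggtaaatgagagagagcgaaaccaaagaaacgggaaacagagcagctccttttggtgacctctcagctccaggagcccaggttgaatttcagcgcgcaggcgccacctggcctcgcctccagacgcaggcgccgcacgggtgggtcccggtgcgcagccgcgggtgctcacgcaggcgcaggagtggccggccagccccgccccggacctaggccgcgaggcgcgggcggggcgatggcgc
Ep400: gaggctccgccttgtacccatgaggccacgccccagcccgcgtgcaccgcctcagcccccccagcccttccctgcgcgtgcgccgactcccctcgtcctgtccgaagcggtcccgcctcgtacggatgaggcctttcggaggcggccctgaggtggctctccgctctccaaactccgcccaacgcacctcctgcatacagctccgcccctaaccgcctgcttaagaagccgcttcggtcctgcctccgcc
Gatad2a, outermost start: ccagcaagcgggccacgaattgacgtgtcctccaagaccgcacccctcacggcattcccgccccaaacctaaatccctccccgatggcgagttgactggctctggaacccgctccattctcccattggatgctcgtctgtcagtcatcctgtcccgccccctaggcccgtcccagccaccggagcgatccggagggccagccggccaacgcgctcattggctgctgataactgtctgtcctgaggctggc

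The Ehmt1 and Ep400 windows hold 26 and 25 CG dinucleotides, more than 90.4% and 89.3% of the 32851 promoter windows of this length, whose median is 6. The 2 printed Dnmt1 windows hold 2 and 7, and a window farther downstream, before the innermost start, holds 26. For Gatad2a the 2 windows hold 18 and 20, and for Dnmt3l the 3 windows hold 5, 4 and 3. TAAT or ATTA occurs in 3 of the 10 windows, those of 2 Dnmt1 starts and of 1 Dnmt3l start, against 54.9% of all promoter windows. The longer TAATTA, the consensus of many LIM-homeodomain factors, occurs in 0 of 10 windows and in 4.84% of all. These letters describe the windows alone, and the files used do not say which start each probe set measures.

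One array stood apart from the other 5. For the Actb control probe sets, the 3' signal of the array labelled double mutant 1 was 24.8 times the 5' signal, against 1.74 and 1.85 on double mutants 2 and 4 and 1.62 to 1.73 on the wild-type arrays, and for Gapdh the ratio was 17.8, against 1.36 to 1.6 on the other 5. Lhx8, one of the deleted genes, had a deposited-table intensity of 5177, 2711 and 3177 in double mutants 1, 2 and 4, against 8976, 9493 and 8628 in wild types 4 and 5 and the unnumbered array. Its value-table intensity was 2036, 699.3 and 910.5 in double mutants 1, 2 and 4, against 2063.3, 1991.6 and 2240.5 in wild types 1, 4 and 5, so there the array labelled double mutant 1 lay within the wild-type range and went against its label. Whether this probe set lies in the deleted part of Lhx8 is not known from the labels, and Lhx6 is not named in the files used. The members' differences are therefore given with and without that array.

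Of the members, 3 had higher intensity in the double mutants, Dnmt1, Ehmt1 and Ep400, and both others, Gatad2a and Dnmt3l, had lower intensity. In the deposited table the folds lay between 1.32 and 1.62, and there the 2 genotypes did not overlap for 5 of 5 members, and likewise for 100% of the listed probe sets. In the deposited value table of all probe sets, which is on another scale, the groups did not overlap for 4 of 5, the exception being Dnmt3l, and 10.8% of all 45037 probe sets were separated in this way. Since the members were selected on this difference, nothing is read from either count. In bulk tissue, fewer cells of a type and less RNA per cell cannot be told apart.

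**Figure D1:**
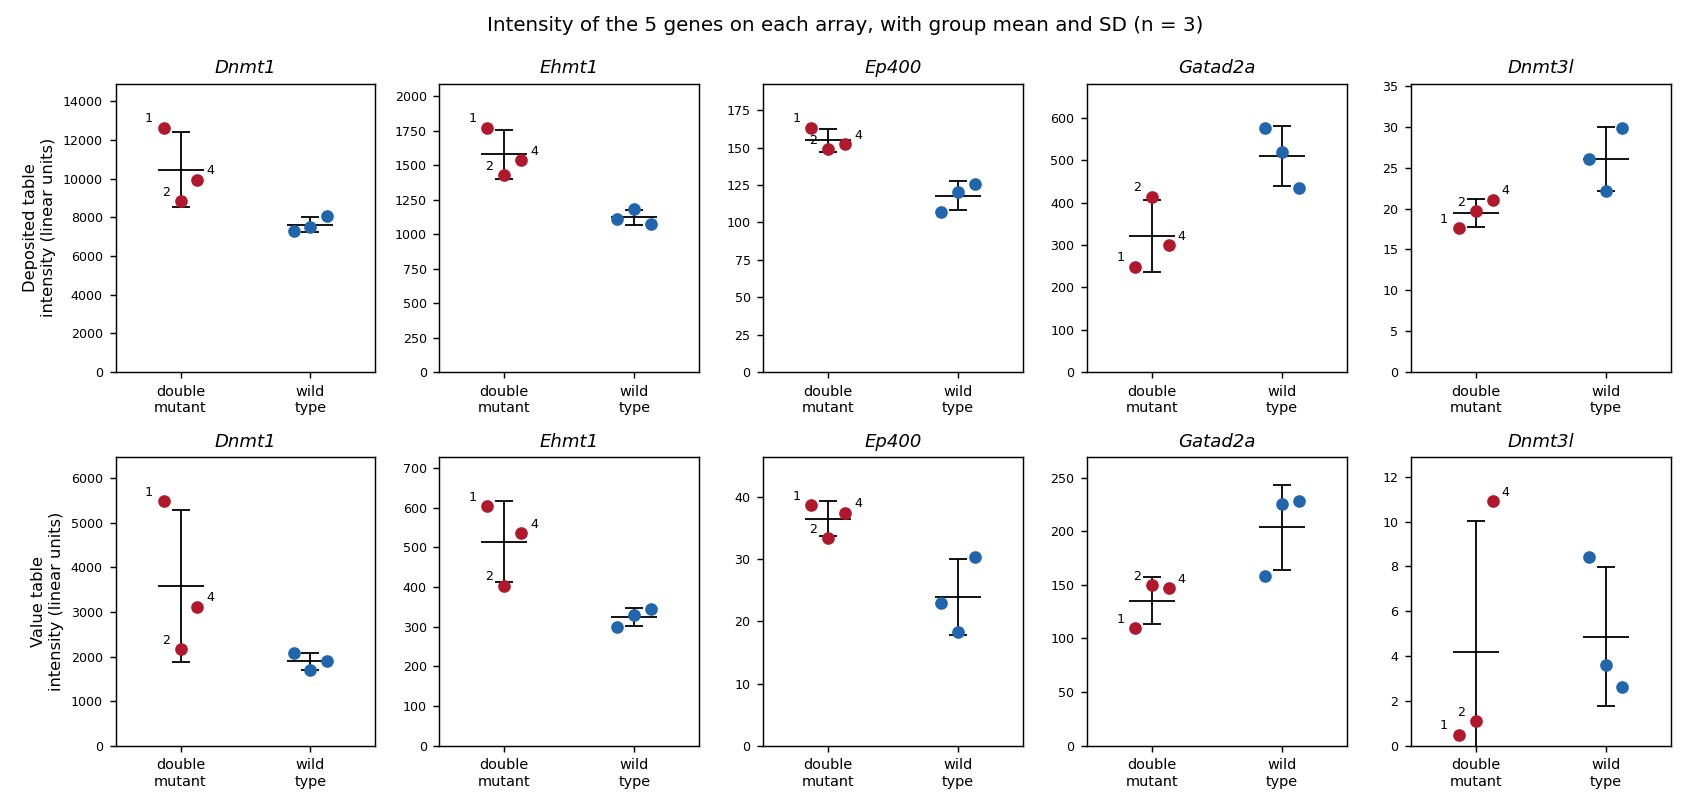
Intensity of each gene on each array (linear units), in the deposited table above and in the value table below, with double mutants in red, labelled by number, wild types in blue, and bars for the group mean and SD (n = 3). Double mutant 1 is the highest array for Dnmt1, Ehmt1 and Ep400 and the lowest for Gatad2a in both tables, and the Dnmt3l groups overlap in the value table, where the lower error bar runs below the axis.

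Dnmt1, the maintenance methyltransferase gene, gave a strong signal, near the top of each array. In the deposited table its intensity was 12630, 8825 and 9931 in double mutants 1, 2 and 4, against 7287, 7508 and 8075 in wild types 4 and 5 and the unnumbered array. The double mutants thus lay above each wild type, double mutant 1 well above the rest. The means were 10462 ± 1957 in double mutants and 7623 ± 407 in wild types (SD, n = 3), and the authors' deposited table gives a fold of 1.36 with an unadjusted p of 0.0494 by an unpaired test.

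In the value table Dnmt1 had 5476, 2158 and 3113 in double mutants 1, 2 and 4, against 2074, 1699 and 1900 in wild types 1, 4 and 5. Double mutant 2 stood just above the highest wild type there, and double mutant 1 at more than double that level. The log2 difference was 0.81 ± 0.36 (SE, limma), and without double mutant 1 it was 0.46. The probe set ranked at the 98.7 to 99.6 percentile of its array in double mutants and at 98.0 to 98.6 in wild types. The manufacturer's suffix of this probe set, 1435122_x_at, marks probes that may also bind other transcripts, and the file gives no alignment for it.

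Ehmt1, the histone methyltransferase gene, differed with less scatter than Dnmt1. Its deposited-table intensity was 1772, 1427 and 1535 in double mutants 1, 2 and 4, against 1111, 1180 and 1071 in wild types 4 and 5 and the unnumbered array. Double mutants were above wild types by a margin wider than the spread among wild types. The means were 1578 ± 176 in double mutants and 1121 ± 55 in wild types (SD, n = 3), and the authors' deposited table gives a fold of 1.40 with an unadjusted p of 0.00821.

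In the value table Ehmt1 had 603.6, 403.1 and 535.0 in double mutants 1, 2 and 4, against 298.6, 329.2 and 343.5 in wild types 1, 4 and 5. The arrays kept the same order among the double mutants as for Dnmt1, 1 then 4 then 2. The log2 difference was 0.62 ± 0.24 (SE, limma), and without double mutant 1 it was 0.50. Its percentile in the array was 86.4 to 91.2 in double mutants and 83.1 to 84.7 in wild types. The file places probe set 1454776_at on chromosome 2 from 24646288 to 24680904, minus strand, in coordinates whose build the files used do not state.

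Ep400, the gene of the remodelling ATPase, had the smallest SD among double mutants relative to its mean. Its deposited-table intensity was 163.3, 148.8 and 152.1 in double mutants 1, 2 and 4, against 107.0, 120.6 and 125.7 in wild types 4 and 5 and the unnumbered array. The gap between the groups was wider than the range of the wild types. The means were 154.7 ± 7.6 in double mutants and 117.8 ± 9.7 in wild types (SD, n = 3), and the authors' deposited table gives a fold of 1.32 with an unadjusted p of 0.00798.

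In the value table Ep400 was dim, with 38.7, 33.4 and 37.5 in double mutants 1, 2 and 4, against 22.9, 18.3 and 30.4 in wild types 1, 4 and 5. Double mutant 2 was only slightly above wild type 5. The log2 difference was 0.41 with 16 added to each intensity, and 0.38 without double mutant 1. It was 0.62 with 1 added and 0.20 with 64 added. Its percentile in the array was 56.4 to 58.9 in double mutants and 49.5 to 55.7 in wild types. With both group means under 100 it was left out of the fit across probe sets. Probe set 1453130_at lies on chromosome 5 from 111168080 to 111199638, minus strand, in the file's coordinates.

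Gatad2a, the NuRD subunit gene, was lower in the double mutants and had the widest fold of the members in the deposited table. Its deposited-table intensity was 249.0, 413.9 and 298.7 in double mutants 1, 2 and 4, against 576.9, 518.8 and 434.6 in wild types 4 and 5 and the unnumbered array. Double mutant 2 lay close under the lowest wild type, while double mutants 1 and 4 were far below. The means were 320.5 ± 84.6 in double mutants and 510.1 ± 71.5 in wild types (SD, n = 3), and the authors' deposited table gives a 1.62-fold lower intensity with an unadjusted p of 0.0475.

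In the value table Gatad2a had 109.7, 149.4 and 147.1 in double mutants 1, 2 and 4, against 158.0, 225.1 and 227.8 in wild types 1, 4 and 5. Wild type 1 was nearer to double mutants 2 and 4 than to the other wild types. The log2 difference was -0.53 ± 0.25 (SE, limma), and -0.40 without double mutant 1. Its percentile in the array was 72.6 to 75.3 in double mutants and 75.8 to 80.1 in wild types. The file aligns probe set 1455505_at to 517 bases of chromosome 8, from 72430971 to 72431487 on the minus strand, a far shorter stretch than the 13782 to 34617 bases of the other 3 aligned members.

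Dnmt3l, the gene of the catalytically inactive cofactor, was near the bottom of the intensity scale in both groups. Its deposited-table intensity was 17.6, 19.7 and 21.1 in double mutants 1, 2 and 4, against 26.1, 22.1 and 29.9 in wild types 4 and 5 and the unnumbered array. Double mutant 4 was just under wild type 5. The means were 19.5 ± 1.8 in double mutants and 26 ± 3.9 in wild types (SD, n = 3), and the authors' deposited table gives a 1.33-fold lower intensity with an unadjusted p of 0.0481.

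In the value table Dnmt3l had 0.5, 1.1 and 10.9 in double mutants 1, 2 and 4, against 8.4, 3.6 and 2.6 in wild types 1, 4 and 5. The groups overlapped completely, since the double mutants held both the lowest and the highest value. The log2 difference was -0.08 with 16 added, and 0.05 without double mutant 1. It was -0.68 with 1 added and -0.02 with 64 added. Its percentile in the array was 5.3 to 38.5 in double mutants and 20.1 to 37.2 in wild types, all below the array median. No detection call is in the files used, so whether the gene was expressed at all was not tested. Probe set 1425035_s_at lies on chromosome 10 from 77512586 to 77526367, plus strand, in the file's coordinates.

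Levels were compared only within each gene, because probe sets differ in how strongly they bind. A percentile therefore places a probe set within its array and does not order the 5 genes by transcript number.

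The members at the edge of the authors' p threshold of 0.05 were Dnmt1 at 0.0494, Dnmt3l at 0.0481 and Gatad2a at 0.0475 in the authors' deposited table. Ehmt1 and Ep400 were further inside it. The authors' fold threshold was nearest to Ep400, at 1.32 in the authors' deposited table. Probe sets just outside the thresholds are not in that table, so their values are not named here. Only Gatad2a also met the 3 criteria of the study's gene list (unadjusted p under 0.05, fold over 1.5 and mean intensity over 100 in either group), 1 of 5 members, where 24.6% of the listed probe sets met them. The median absolute fold was 1.36 over the members and 1.46 over all 1061 listed probe sets.

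**Figure D2:**
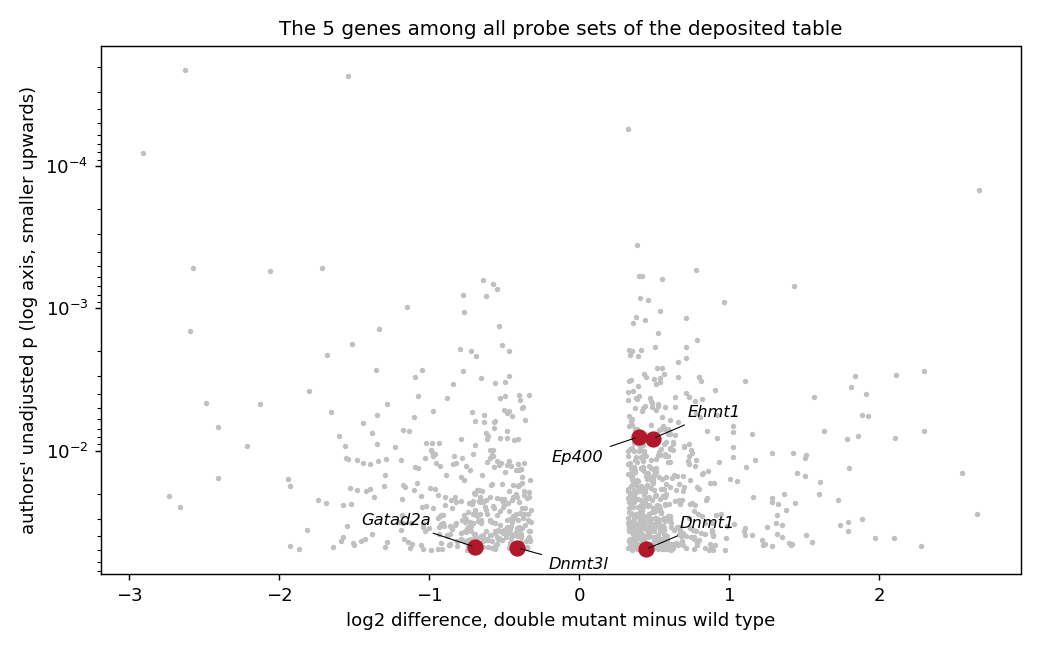
Each listed probe set by its log2 difference, double mutant minus wild type (horizontal), and the authors' unadjusted p (vertical, log axis, smaller upwards), with the 5 genes in red. Dnmt1, Dnmt3l and Gatad2a lie along the lower edge set by the threshold, and Ehmt1 and Ep400 lie well above it.

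In the fit across the value table, 3 of the 5 members had a mean intensity over 100 in either group and entered, Dnmt1, Ehmt1 and Gatad2a. With limma and Benjamini-Hochberg adjustment over 14446 probe sets, 0 of 3 had an adjusted p under 0.05, as had 0% of all probe sets. At an unadjusted limma p under 0.05 there were 1 of 3 members, Ehmt1, and 245 of all. The members were selected on this same genotype difference, so nothing is read from the member calls in this paragraph. The same fit without moderated variances gave 0 probe sets at an adjusted and 346 at an unadjusted p under 0.05. Ehmt1 also met the 3 criteria in this table, at a fold of 1.54, where 1.63% of all probe sets met them. Gatad2a, at a fold of 1.44, did not, so a different member met the criteria in each table. The criteria were not applied alike, with an unpaired test in the deposited table and limma, after a constant was added, in the value table. The cut at 100 also fell on another scale. Ep400 had means of 154.7 and 117.8 in double mutants and wild types in the deposited table, against 36.5 and 23.9 in the value table. The unnumbered wild-type array may differ too, so nothing is read from this contrast. Dnmt1 had the widest fold in the value table, 1.76, with the widest spread among the double mutants.

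The array labelled double mutant 1 was the double-mutant array farthest from the wild-type mean, in the direction of the group difference, for 5 of 5 members in the deposited table, as it was for 51.9% of the listed probe sets. The part of this array in the members' differences was not tested beyond leaving it out.

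Without double mutant 1, the authors' thresholds of p and fold were met in the deposited table by 2 of 5 members, Ehmt1 and Ep400, and by 49.5% of the listed probe sets. The folds without it were 1.32 for Ehmt1, 1.28 for Ep400, 1.23 for Dnmt1, 1.44 for Gatad2a and 1.27 for Dnmt3l, all in the same direction as with it. Ehmt1 and Ep400 met the thresholds with each of the 6 arrays left out in turn, which 27.0% of the listed probe sets did. Dnmt1, Gatad2a and Dnmt3l each met them in 1 of these 6 recomputations.

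**Figure D3:**
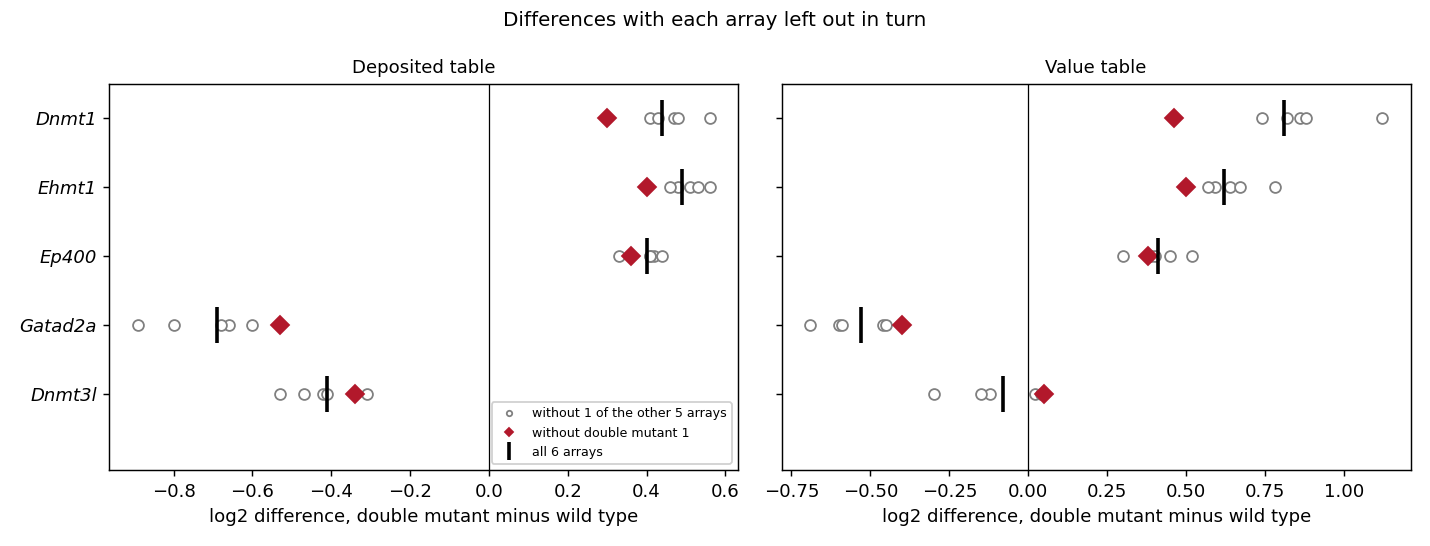
Log2 difference, double mutant minus wild type (horizontal), of each gene with all 6 arrays (bar), without double mutant 1 (diamond) and without 1 of the other arrays (circles), in the deposited table on the left and the value table on the right. Without double mutant 1 all 5 genes move toward 0 in the deposited table, Dnmt1 to 0.30 and Gatad2a to -0.53; in the value table Dnmt1 moves to 0.46 and Dnmt3l crosses 0.

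Other genes of the same machinery were looked up in 10 lists with 185 genes in all. The deposited table names 7 of them, the 5 members and a further pair, 4 higher and 3 lower, beside 645 higher and 416 lower among all listed probe sets. Of all 45037 probe sets 2.36% are listed, a share of probe sets and not of genes, so few or no listed genes in a list of this size say nothing particular about it. Genes it does not list have no name in the files used, so their values are not given. Of 9 DNA methyltransferases and cofactors Dnmt1 was listed as higher and Dnmt3l as lower. Of 18 genes of lysine 9 methylation Ehmt1 was listed, of 25 of the TIP60/p400, INO80 and SRCAP complexes Ep400, and of 15 NuRD genes Gatad2a. Of the 12 methyl-CpG binding proteins, 21 Polycomb genes, 28 genes of other remodellers and 30 of histone acetylation in these lists, 0 were listed. The lists are not complete. Outside them, Rybp, a Polycomb-associated gene, was listed as higher (log2 difference 0.51). Sap18, of a histone deacetylase complex, was listed as lower (-0.33).

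Gadd45g, a stress-response gene whose product has been tied to active DNA demethylation, was the additional gene on the higher side, from a list of 8. Its deposited-table intensity was 1400, 390 and 634 in double mutants 1, 2 and 4, against 242, 198 and 195 in wild types 4 and 5 and the unnumbered array. All double mutants were above all wild types, over a wide range, and in the value table, with 351.4, 98.8 and 164.8 in double mutants 1, 2 and 4, against 67.9, 54 and 48.9 in wild types 1, 4 and 5, they were too. The authors' deposited table gives a 3.34-fold higher intensity with an unadjusted p of 0.0334, and the log2 difference was 1.74 with all arrays and 1.24 without double mutant 1.

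Mll5, a member of the MLL family of SET-domain genes, was the additional gene on the lower side, from a list of 22. Its deposited-table intensity was 19.8, 20.3 and 20.7 in double mutants 1, 2 and 4, against 26.1, 50.5 and 42.8 in wild types 4 and 5 and the unnumbered array. The double mutants were nearly equal there and the wild types were not. Its value-table intensity was 10.6, 11.2 and 4.5 in double mutants 1, 2 and 4, against 10.6, 9 and 20.7 in wild types 1, 4 and 5, and the groups overlapped. The authors' deposited table gives a 1.89-fold lower intensity with an unadjusted p of 0.0327, and both group means were under 100.

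**Figure D4:**
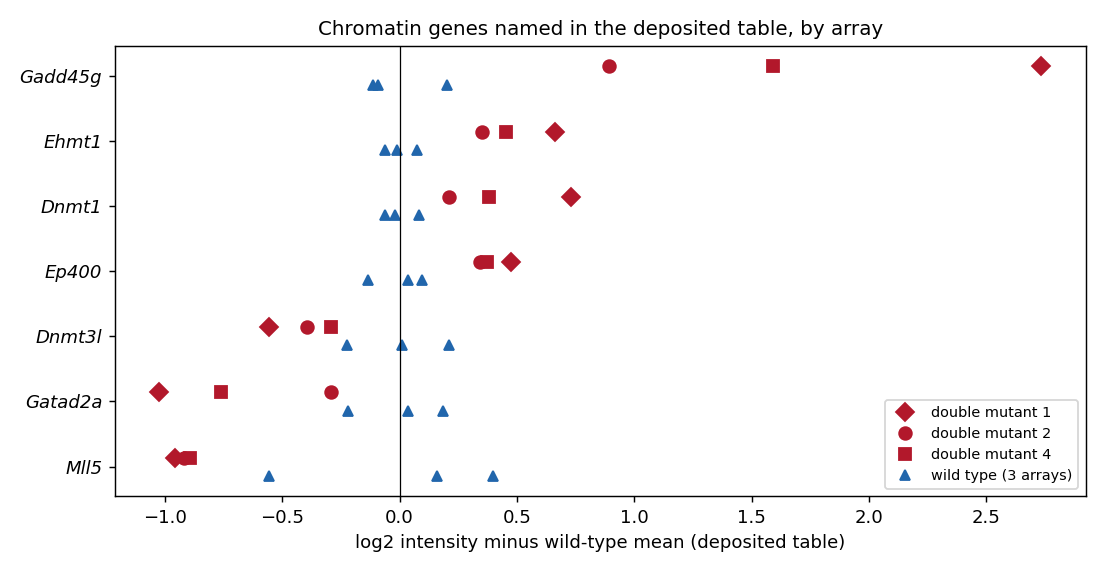
Log2 intensity of the 7 genes from the chromatin lists that the deposited table names, on each array minus the wild-type mean of that gene (deposited table), with double mutants in red by number and wild types in blue. Double mutant 1 lies farthest from 0 among the double mutants for each of the 7 genes, as for 51.9% of the listed probe sets. For Mll5 the double mutants are nearly equal, at -0.96, -0.92 and -0.89 for numbers 1, 2 and 4. Gadd45g spans the widest range.

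Among all named listed genes, those most like each member over the 6 arrays, by Pearson's r of log2 intensity in the deposited table, differed in the same direction as that member. They were Ccdc69 (r = 0.999), Zswim2 and Nmb for Dnmt1, Rhbdf2 (r = 0.997), C86090 and A430028G04Rik for Ehmt1, and Nav3 (r = 0.990), Alcam and D2Wsu81e for Ep400. For the lower members they were Braf (r = 0.989), Prrg1 and Adal for Gatad2a, and Mpp3 (r = 0.985), Ephb2 and Wdr37 for Dnmt3l. With 6 arrays in 2 groups that the table's selection sets apart, such values are a description of shared arrays and shared selection.

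Markers of the tissue and of other cells were also looked up. Of 16 genes of arch mesenchyme the table lists Lhx8, Msx1 and Barx1, all lower in the double mutants. Lhx8 is itself one of the deleted genes, so its place there says nothing about the tissue. Facial mesenchyme genes outside this list went both ways, as Foxc1 (log2 difference 2.11) and Tbx22 (-1.44) did. Of 11 neural and glial markers, Sox10, Erbb3 and Foxd3 were listed, all higher, and their summed intensity was 177.9, 144.2 and 195 in double mutants 1, 2 and 4, against 80.4, 82.4 and 78.6 in wild types 4 and 5 and the unnumbered array. Every listed probe set separates the groups, so this sum of markers listed as higher had to separate them too. It also adds intensities of different probe sets, and nothing is read from it. Of 6 muscle precursor markers Msc was listed as higher, and 0 of 12 epithelial, 0 of 8 endothelial and 0 of 8 blood markers were listed. These marker lists are short and do not count listed genes outside them, such as Pax7 of muscle progenitors and Erg of endothelium (both log2 difference 0.39). The part of glial cells in the members' differences was not tested.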

How the data were processed

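Intensities of 6 Affymetrix arrays per table were used, with 3 per genotype assigned through the sample titles. The unnumbered wild-type array was assigned through its column name instead. The authors deposited 2 tables. The value table holds 1 linear intensity for each of 45101 probe sets, 64 of them controls; RMA is the one tool in the submitters' processing notes, and how these intensities were summarised is not stated there. The other deposited table lists 1061 probe sets with 6 columns of linear intensity, a p-value from an unpaired test without correction and an absolute fold (a ratio). Per the file headers it keeps p-values up to 0.05 and folds from 1.25. Its 6 further per-array columns were not used. Recomputing from log2 intensities matched the deposited p-values within 5.14e-07 and folds within 1.63e-06.

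Value-table intensities were taken as log2 after adding 16. Probe sets with a mean over 100 in either group were fitted with limma 3.58.1 (R 4.3.3). The model held genotype only, and p-values were adjusted by Benjamini-Hochberg. The fit was tested on simulated arrays of equal scatter, unlike these arrays, so that test does not show how the fit behaves here. Other steps used pandas 2.3.3, scipy 1.17.1, numpy 2.4.6 and Python 3.11.15, and plots used matplotlib 3.10.9. Promoter sequences came from RefSeq (GRCm38.p6). With 3 arrays per genotype an exact permutation test goes no lower than p = 0.1, and none was run. The number of arrays limits precision.

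The members, lists and alternatives were chosen with earlier results of these data known. Genes named are the members, listed genes of the chromatin lists, Lhx8, the 3 listed genes most like each member, and the listed genes of the marker lists beside their counts. Rybp, Foxc1, Tbx22, Pax7 and Erg, and the genes named under other observations, fall outside this rule. They were chosen after their values were seen. No explanation was weighed. Array numbers 1 and 4 occur in both genotypes, and nothing in the labels says that a shared number marks a shared litter.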

Additional observations from a re-analysis of the deposited data

How the results depend on the processing

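The members' log2 differences in the deposited table kept their sign in all 35 recomputations, which left out each array or shifted the arrays to a common median. They ran from 0.30 to 0.56 for Dnmt1, 0.40 to 0.56 for Ehmt1, 0.33 to 0.44 for Ep400, -0.89 to -0.53 for Gatad2a and -0.53 to -0.31 for Dnmt3l. Of 65 alternative values in the value table, 52 moved by less than the spread between replicates, 9 moved by more and 4 changed sign. Dnmt3l changed sign without double mutant 1 (0.05), without double mutant 2 (0.02) and without wild type 1 (0.04), and was -0.30 without double mutant 4; Ep400 changed sign with arrays scaled to the hybridization controls (-0.13). That scaling, chosen after the data were seen, moved the median log2 difference of the tested probe sets to -0.59, from -0.05, and put Dnmt1 at 0.27, Ehmt1 at 0.08 and Gatad2a at -1.07. Array quality weights put Dnmt1 at 0.23 and Ehmt1 at 0.31.

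The count past an adjusted p of 0.05 was 0 with all arrays. It ran from 0 to 9 when 1 array was left out, with 9 without double mutant 1 and 2 without double mutant 4. It was 2 with the replicate block and 1619 with array weights. The block fit gave all probe sets 1 standard error, 0.709, so its calls go by size alone. Double mutant 2 and wild type 5 share their numbers with no other array and add nothing to its genotype difference. That difference rests on the arrays numbered 1 and 4, with double mutant 1 among them. The weights, whose estimation ended with a convergence warning, were 0.0375, 20 and 0.229 for double mutants 1, 2 and 4, so that fit leans on double mutant 2. The count meeting the 3 criteria was 235, with 124 higher and 111 lower, and ran from 80 to 659 when 1 array was left out: 337 without double mutant 1, 506 and 659 without double mutants 2 and 4, and 113, 106 and 80 without wild types 1, 4 and 5. It was 473 with the replicate block, 661 with array weights, 81 scaled to the hybridization controls (15 higher and 66 lower), and 135 with the ordinary test. With a common median 97 were higher and 139 lower. The replicate block used the array number; deviations of same-numbered arrays correlated at 0.065 for number 1 and -0.079 for number 4, so the numbers do not show a pairing. The causes of these changes were not tested. Both group means of Ep400 and of Dnmt3l were under 100 in the value table, where signal limits what can be compared.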

Other observations

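The deposited table annotates 9 named genes to chromatin modification, 5 higher and 4 lower, a term chosen after the values were seen. Besides 3 members and Mll5 they include Eya1, Eya2 and Eya4, known as transcriptional cofactors with phosphatase activity, Rag1, the gene of a recombinase of lymphocytes, and Sap18, which encodes a subunit of the Sin3 histone deacetylase complex. Sap18 intensity was 521, 548 and 591 in double mutants 1, 2 and 4, against 789, 643 and 661 in wild types 4 and 5 and the unnumbered array, a 1.26-fold lower intensity with an unadjusted p of 0.0364 in the authors' deposited table. Its value-table intensity was 181.8, 181.6 and 156.7 in double mutants 1, 2 and 4, against 202.4, 248.2 and 203.2 in wild types 1, 4 and 5, again without overlap.

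Genes for 2 subunits of the PAF1 complex, which travels with RNA polymerase and aids histone modification, were listed in opposite directions; they too were picked after their values were seen. Ctr9 intensity was 1034, 691 and 854 in double mutants 1, 2 and 4, against 621, 557 and 608 in wild types 4 and 5 and the unnumbered array, and the authors' deposited table gives a fold of 1.43 higher with an unadjusted p of 0.0423. Ctr9 in the value table was 279.8, 205.2 and 194.1 in double mutants 1, 2 and 4, against 197.6, 166.6 and 159.7 in wild types 1, 4 and 5, where double mutant 4 lay below wild type 1 and the groups overlapped. Cdc73 intensity was 108, 148 and 110 in double mutants 1, 2 and 4, against 195, 242 and 263 in the same wild types, and the authors' deposited table gives a fold of 1.92 lower with an unadjusted p of 0.00876. Cdc73 in the value table was 21.2, 48.9 and 32.3 in double mutants 1, 2 and 4, against 83, 61.8 and 68.1 in wild types 1, 4 and 5, without overlap. Without double mutant 1 the log2 differences were 0.37 for Ctr9 and -0.86 for Cdc73.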
